A study of Mus musculus with 152 samples.

Results

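Livers of mice fed LIDPAD for 8 weeks were compared with livers of mice fed LIDPAD for 4 weeks. The comparison uses 16 of the 152 samples of the series, 8 for each feeding duration. LIDPAD is a diet used to bring on fatty liver disease in mice. All mice were C57BL/6J, an inbred laboratory strain, with no genetic change or drug named, and the diet began when they were 8 weeks old. Mice on a control diet for the same durations, another 16 samples, served to show what the same 4 weeks did without LIDPAD. Sex, hour of collection and the number of animals behind a sample are not given in the labels. Samples with numbers 1 to 4 of a group, and likewise 5 to 8, were nearly alike: a chi-square of their counts came to 2.02 to 2.25 per gene in the 48 pairs inside such blocks and to 3.99 to 11.8 in the 64 pairs across the blocks of a group. Each block was therefore averaged and counted as 1 sample, called library 1 or library 2 here, which leaves 2 libraries a group and 4 in the comparison. Nothing says that the 2 libraries of a group came from separate animals, so a p-value here reflects library-to-library spread that could be technical.

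As background, the fatty liver fills hepatocytes with triglyceride held in lipid droplets. Bone marrow derived macrophages then enter beside the resident Kupffer cells and take on a lipid-handling state marked by Gpnmb, Trem2, Itgax and Mmp12. Stellate cells, the vitamin A storing cells of the sinusoid wall, turn into collagen-producing myofibroblasts as injury goes on. Hepatocytes meanwhile carry the enzymes of lipid, bile acid and drug metabolism, many of which follow the daily clock, feeding and the pulses of growth hormone.

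The 8 libraries of weeks 4 and 8 held 24.8 to 48.8 M reads (M for 1000000), and mitochondrial ribosomal RNA took 18.8 to 21.7% of them. Values are given in FPM, reads divided by a size factor and set to a scale of 1000000, after the separately scaled tables of both weeks were put on 1 scale by factors of 0.970 to 1.03. Hepatocyte markers dominated every library, with a summed level over 14 genes of 59122 to 64307 FPM in the 4 LIDPAD libraries. 1 control library stood apart. Control week 4 library 2, the shallowest, held Gpnmb at 11.1 FPM, Mmp12 at 25.9, Mki67 at 29.2 and Gsta1 at 53.9, where control week 4 library 1 held 0.139, 0.335, 3.82 and 1.47 FPM. In control week 4, 99 of 13761 genes differed more than 4-fold between the 2 libraries, against 24 in control week 8, 12 in LIDPAD week 4 and 3 in LIDPAD week 8. Control values that bear on a result are therefore mostly given with and without that library. The control shares of all genes at an unadjusted p under 0.05 are given only with it. The 4 libraries of the LIDPAD comparison do not include it.

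No gene passed the main test. limma, with p-values adjusted by the Benjamini-Hochberg method, called 0 of 13219 genes (0%) between week 8 and week 4 of LIDPAD feeding, and the smallest adjusted p was 0.0784. At an unadjusted p under 0.05 there were 1652 genes. Of all genes tested, 7.60% were higher at week 8 by that measure and 4.89% lower. edgeR's quasi-likelihood test on the recovered reads called 0 genes as well, with 1613 at an unadjusted p under 0.05. DESeq2 on the same reads called 77 genes at an adjusted p under 0.05, of which 49 were higher (0.378% of 12962) and 28 lower (0.216%). All 77 had libraries that did not overlap between the weeks, a separation that 26.3% of all genes tested showed upward and 19.5% downward. Their limma adjusted p ran from 0.0784 to 0.344. The count rested on which week 4 library was used: without LIDPAD week 4 library 1 limma called 243 genes, 51 of them among DESeq2's 77, and without LIDPAD week 4 library 2 it called 6 (Gstm3, Gpnmb, Osbpl3, Lyz2 and Mmp12 higher, Neat1 lower). Without either week 8 library it called 0. In what follows a gene is called higher or lower as a statement of its values, and the tool that called it is named where one did.

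**Figure D1:**
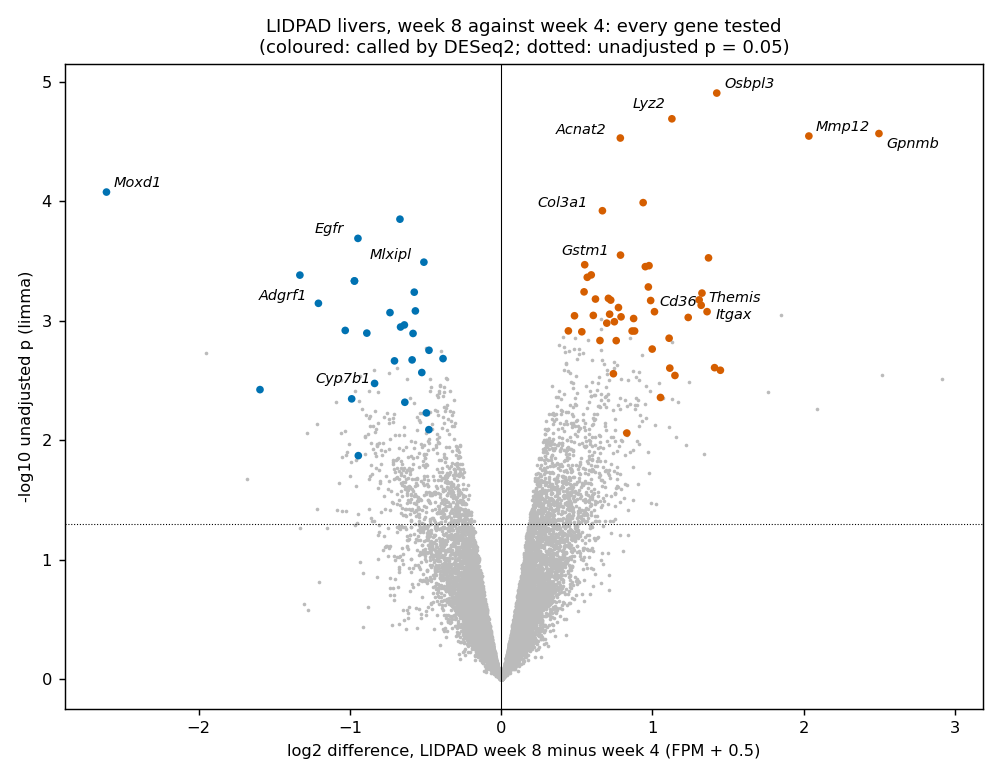
Log2 difference of each of 13219 genes between LIDPAD week 8 and week 4 (x axis, FPM + 0.5) against the unadjusted limma p (y axis, −log10), with the genes DESeq2 called coloured orange where higher (49) and blue where lower (28). Gpnmb and Mmp12 lie farthest to the right among the genes called higher, and Moxd1 farthest to the left. Moxd1 passed the filter of 1 FPM only through its week 4 libraries, so it could only lie to the left.

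Markers of lipid-handling macrophages had the largest median difference among the lists with at least 2 members tested. Gpnmb, a glycoprotein of lipid-laden macrophages (chr6:49036546-49070929, plus strand, GRCm38), stood at 1.72 and 1.04 FPM in the week 4 libraries and at 12.4 and 8.00 FPM in the week 8 libraries. Both week 8 libraries were above both week 4 libraries, the means differed 7.38-fold, and the log2 difference was 2.50 ± 0.26 (SE; limma adjusted p = 0.0784, DESeq2 adjusted p = 4.8e-14). Mmp12, the macrophage elastase (chr9:7344381-7369499), was at 2.96 and 1.79 FPM and then at 10.5 and 11.6 FPM. Its means differed 4.66-fold and its log2 difference was 2.04 ± 0.21 (limma adjusted p = 0.0784, DESeq2 adjusted p = 2e-12). Lyz2, the lysozyme of myeloid cells, went from 31.0 and 25.4 FPM to 60.8 and 63.1 FPM, which is a log2 difference of 1.13 ± 0.11 with a spread of 1.60 FPM (SD) between the week 8 libraries (limma adjusted p = 0.0784, DESeq2 adjusted p = 4.8e-11). These 3 genes, with Osbpl3 and Acnat2 described further on, share limma's smallest adjusted p. In bulk liver RNA, more cells of a type and more RNA per cell cannot be told apart.

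Itgax, the integrin known as CD11c, was at 2.15 and 1.19 FPM in week 4 and 5.41 and 4.52 FPM in week 8 (log2 1.36 ± 0.24, DESeq2 adjusted p = 0.0042). Stretches of the promoters of Gpnmb, Mmp12 and Itgax are shown because these genes were among the 7 of the macrophage list that DESeq2 called and, unlike Lgals3, Capg, Clec7a and Spp1, each holds the 7-letter AP-1 element, bound by Fos and Jun proteins, near an annotated start site. The stretches run from 120 bases before the start site to 20 bases after it, 5′ to 3′ on the plus strand, from RefSeq on GRCm38.p6, with the element in capitals.
Gpnmb, chr6:49036398-49036537: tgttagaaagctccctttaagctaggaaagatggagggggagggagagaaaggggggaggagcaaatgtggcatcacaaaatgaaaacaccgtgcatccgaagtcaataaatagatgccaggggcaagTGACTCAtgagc
Mmp12, chr9:7347254-7347393: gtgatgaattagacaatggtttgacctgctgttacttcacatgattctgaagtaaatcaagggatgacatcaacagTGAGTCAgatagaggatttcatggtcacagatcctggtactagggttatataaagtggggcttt
Itgax, chr7:128129430-128129569: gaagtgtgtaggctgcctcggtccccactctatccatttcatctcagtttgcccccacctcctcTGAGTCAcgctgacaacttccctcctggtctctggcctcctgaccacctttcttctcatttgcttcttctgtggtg
The element lies 8 bases downstream of the RefSeq start site in Gpnmb, 44 bases upstream in Mmp12 at 1 of its annotated start sites, and 56 bases upstream in Itgax. The gene position given above for Gpnmb begins after its stretch ends, so by that annotation the element lies upstream. A search for TGACTCA on both strands (TGAGTCA on the other strand) over windows of 250 bases before to 50 after the start site found it in 5.20% of 32851 mouse windows, and in 3 of the 10 windows of the 7 macrophage-list genes that DESeq2 called. The same 10 windows held CCAAT in 5 (37.4% of all windows), AGGTCA, with TGACCT as its other strand, in 2 (16.3%), TTTGAA in 1 (17.9%), and in none CACGTG (7.15%), its longer form GTCACGTG (2.25%), or TTATGTAA or TTACGTAA (1.06%). The AP-1 element was added to the search after the windows had been seen, and a match is a description of letters, not of binding.

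The list of lipid-associated macrophage markers held 15 genes, of which 13 passed the filter of 1 FPM in 2 libraries. Of these, 11 were higher at an unadjusted p under 0.05 and 1 lower, the median log2 difference was 0.95 against 0.02 over all genes tested, and DESeq2 called 7, all higher. Beside the genes above, DESeq2 called Lgals3 (galectin-3), Capg, Clec7a (the receptor Dectin-1) and Spp1 (osteopontin). Lgals3 was at 3.93 and 3.28 FPM, then 7.95 and 7.20 FPM. Clec7a was at 7.35 and 4.14 FPM, then 11.6 and 13.7 FPM. Trem2, the lipid receptor that names this macrophage state, was low throughout, at 0.788 and 0.537 FPM and then 1.54 and 1.73 FPM (log2 0.89 ± 0.22, limma adjusted p = 0.33, DESeq2 adjusted p = 0.28). Trem2 passed the filter only through its week 8 libraries, so it could only come out higher. The exception was Fabp5, which binds fatty acids and is made by hepatocytes too, at 9.56 and 13.2 FPM in week 4 and 6.00 and 9.24 FPM in week 8 (log2 −0.56 ± 0.23), both week 8 libraries being below both week 4 libraries. The 2 members left out by the filter, Ms4a7 and Ctsk, were at 0.382 to 1.22 FPM in the 4 libraries. Without each LIDPAD library in turn, 9 to 11 of the 12 or 13 members tested were higher at an unadjusted p under 0.05 and the median lay between 0.75 and 1.07.

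Other myeloid genes were higher as well. Of 13 Kupffer cell markers tested, 6 were higher at an unadjusted p under 0.05 and none lower, with a median of 0.36, and DESeq2 called none. The highest ranked were Adgre1 (the F4/80 antigen), at 21.1 and 17.1 FPM and then 25.2 and 28.1 FPM, Vsig4 and the complement gene C1qa. Clec4f and Timd4 mark resident Kupffer cells. Clec4f was at 66.4 and 53.1 FPM and then 61.3 and 70.0 FPM, so that the weeks overlapped. Timd4 was at 4.48 and 3.73 FPM and then 4.64 and 4.48 FPM, with overlap too. Without LIDPAD week 8 library 2 no Kupffer marker had an unadjusted p under 0.05. Kupffer counts were 10 without LIDPAD week 4 library 1 and 2 without LIDPAD week 4 library 2. Of 14 monocyte and neutrophil markers 6 could be tested and 4 were higher: Lyz2, Ccr2, the chemokine receptor of monocytes (3.01 and 1.82 FPM, then 4.68 and 6.17 FPM), Itgb2 and Csf3r. The summed level of the 14 genes was 79.3 to 95.6 FPM in week 4 and 131 to 146 FPM in week 8. Ptprc, the leukocyte antigen CD45, named after its values were seen, was at 17.0 and 17.7 FPM and then 25.9 and 26.1 FPM (DESeq2 adjusted p = 0.018).

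Genes of phagocytes, chemotaxis and antigen presentation were more often higher than lower. Ctss, the cathepsin that trims antigen-presenting complexes, was at 24.5 and 20.2 FPM in week 4 and 33.4 and 39.7 FPM in week 8 (log2 0.70 ± 0.13, DESeq2 adjusted p = 0.0099). It led the lysosome list, where 8 of 20 members were higher at an unadjusted p under 0.05 and none lower, with a median of 0.13, followed by Atp6v0d2, a proton pump subunit. The lysosome count was 4 without LIDPAD week 4 library 2, 4 without LIDPAD week 8 library 1 and 3 without LIDPAD week 8 library 2. Of 15 chemokine and cytokine genes tested 7 were higher and none lower, with a median of 0.36. Ccl6, a chemokine of myeloid cells, was at 4.36 and 3.93 FPM and then 7.23 and 7.67 FPM (DESeq2 adjusted p = 0.039), and Ccl9 and Cxcl16 came next. Tnf, at 0.238 to 0.344 FPM in the 4 libraries, was too low to be tested. Of 17 antigen presentation genes 6 were higher and none lower, with a median of 0.24, and the count was 3 without LIDPAD week 4 library 2 and 2 without LIDPAD week 8 library 2. They were the class II genes H2-Eb1, H2-Aa, H2-Ab1 and H2-DMb1, the invariant chain Cd74 and the ubiquitin-like gene Ubd. H2-Eb1 was at 15.6 and 13.4 FPM, then 19.6 and 26.6 FPM (log2 0.64 ± 0.16, DESeq2 adjusted p = 0.092). Of 23 interferon response genes 3 were higher and 1, Stat2, lower, with a median of 0.11. Gbp2, a guanylate-binding protein, led at 4.84 and 5.24 FPM and then 7.65 and 8.96 FPM, ahead of Oas1a and Ifi27l2a.

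**Figure D2:**
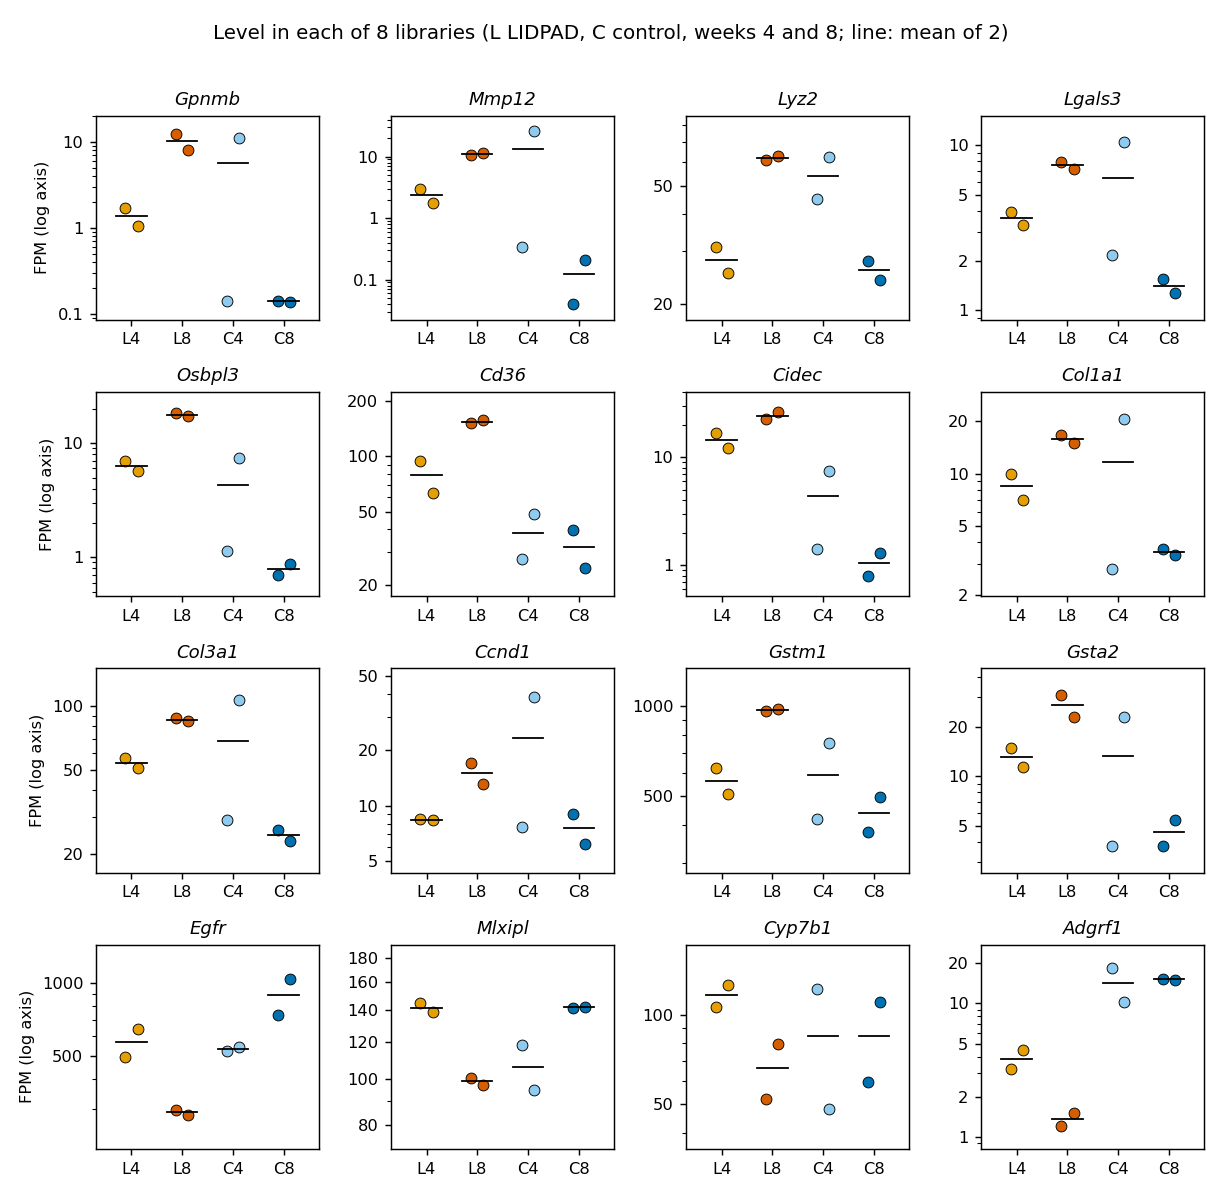
Level of 16 genes in each of the 8 libraries (y axis, FPM, log axis) by group, L for LIDPAD, C for control, at weeks 4 and 8, with library 1 left of library 2 and a line at the mean of the 2. In LIDPAD livers both week 8 points lie above both week 4 points for the genes from Gpnmb to Gsta2 and below them for the last 4, while control week 4 library 2 (right light blue point) reaches or passes the LIDPAD week 8 level for Gpnmb, Mmp12, Lgals3, Col1a1 and Ccnd1, among others.

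Many matrix genes, the collagens among them, were at higher levels at week 8. Col3a1, a fibrillar collagen (chr1:45311538-45349706), was at 56.8 and 51.1 FPM in week 4 and at 87.2 and 84.9 FPM in week 8, a 1.59-fold difference of means with no overlap (log2 0.67 ± 0.09, limma adjusted p = 0.20, DESeq2 adjusted p = 0.00015). Col1a1, the main collagen of scars (chr11:94936224-94953042), was at 9.93 and 7.03 FPM and then 16.6 and 15.1 FPM (log2 0.88 ± 0.17, DESeq2 adjusted p = 0.011). The collagen-binding proteoglycans lumican and decorin were higher too, Lum at 3.98 and 4.11 FPM and then 7.53 and 9.15 FPM, and Dcn at 89.8 and 90.9 FPM and then 117 and 130 FPM. Of 32 matrix genes tested, from a list of 36, 17 were higher at an unadjusted p under 0.05 and none lower, and the median was 0.32. DESeq2 called Mmp12, Col3a1, Lum, Dcn and Col1a1. Without each LIDPAD library in turn, 10 to 17 members were higher and the median was 0.29 to 0.34, and without LIDPAD week 4 library 1, 2 members were lower. The summed level of the list, most of it from fibronectin (Fn1, 991 and 1246 FPM in week 4, 947 and 927 FPM in week 8), overlapped between the weeks, at 1546 and 1794 FPM and then 1669 and 1646 FPM. Timp1, an inhibitor of matrix proteases, was under 1 FPM in the 4 libraries and was not tested.

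Markers of the matrix-producing cells had a median close to that of the matrix genes. Of 12 stellate and myofibroblast markers tested 5 were higher at an unadjusted p under 0.05, none lower, with a median of 0.33. These were Lrat, the enzyme that esterifies vitamin A (22.4 and 19.2 FPM, then 26.4 and 30.2 FPM), the growth factor Hgf, Dpt, and the receptors Pdgfra and Pdgfrb. DESeq2 called none of the 5. Acta2, the smooth muscle actin of myofibroblasts, was at 1.10 and 1.61 FPM and then 1.98 and 2.23 FPM (log2 0.50 ± 0.21). The list's summed level was 226 to 236 FPM in week 4 and 265 to 266 FPM in week 8. Without LIDPAD week 8 library 2, 1 of the 12 had an unadjusted p under 0.05 and the median was 0.31, and without LIDPAD week 8 library 1 the count was 3.

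Cell cycle transcripts were low and were higher at week 8. Ccnd1, the cyclin of the first growth phase, was at 8.46 and 8.37 FPM and then 17.0 and 13.1 FPM (log2 0.79 ± 0.14, limma adjusted p = 0.28, DESeq2 adjusted p = 0.014). Mki67, the proliferation antigen, was at 6.36 and 3.57 FPM and then 9.33 and 9.66 FPM, and Ccnb1, a mitotic cyclin, at 0.643 and 0.238 FPM and then 1.44 and 1.59 FPM. Like Ccnd1, neither Mki67 nor Ccnb1 passed limma's threshold, these 2 at an adjusted p of 0.33 each. Ccnb1 passed the filter of 1 FPM only through its week 8 libraries, so it could only come out higher. Members of this kind enter the counts and the median that follow. Of 24 members tested 11 were higher at an unadjusted p under 0.05 and none lower, the median was 0.59, and DESeq2 called Ccnd1 alone. The count was 16 without LIDPAD week 4 library 1, and 5, 3 and 4 without LIDPAD week 4 library 2, week 8 library 1 and week 8 library 2, over 19 to 23 members tested.

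Cytoskeletal and calcium-binding genes of spreading or injured cells were higher as well. Of 19 tested 10 were higher at an unadjusted p under 0.05 and none lower, with a median of 0.51. The count was 15 without LIDPAD week 4 library 1, 16 without LIDPAD week 8 library 1 and 4 without LIDPAD week 8 library 2. Anxa2, a membrane-binding annexin, was at 18.1 and 10.9 FPM and then 26.2 and 38.6 FPM (log2 1.15 ± 0.26, DESeq2 adjusted p = 0.0045), and Tmsb4x, the actin-sequestering thymosin, at 44.8 and 38.7 FPM and then 59.5 and 68.5 FPM (DESeq2 adjusted p = 0.01). With Lgals3 these are the 3 that DESeq2 called. Cd63 followed, at 1.10 and 0.712 FPM and then 2.32 and 2.78 FPM. Of 5 cholangiocyte markers tested Krt8, Krt18 and Spp1 were higher. Hepatocytes make Krt8 and Krt18 too, and the cholangiocyte-restricted part of the list was low, 6 of 11 members being under 1 FPM in the 4 libraries. Krt8 was at 130 and 138 FPM and then 178 and 198 FPM (DESeq2 adjusted p = 0.014).

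Glutathione and NRF2 target genes, which protect against electrophiles and oxidants, were higher as a group. Gstm1, a glutathione transferase, was at 620 and 509 FPM in week 4 and 960 and 981 FPM in week 8, a 1.72-fold difference of means (log2 0.79 ± 0.12, limma adjusted p = 0.28, DESeq2 adjusted p = 8.9e-06). Nqo1, the quinone reductase, was at 3.39 and 2.67 FPM and then 6.48 and 6.32 FPM (DESeq2 adjusted p = 0.01). Gsta2 was at 14.8 and 11.3 FPM and then 31.2 and 22.7 FPM, and Gsta1, its near-identical neighbour, at 12.3 and 5.25 FPM and then 34.0 and 27.3 FPM. Reads could be split between those 2 copies, so each value alone is uncertain. Of 17 members tested 12 were higher at an unadjusted p under 0.05 and none lower, the median was 0.45, and DESeq2 called Gstm1, Gsta2, Nqo1 and Gsta4. Both week 8 libraries were above both week 4 libraries in 15 of the 17, against 26.3% of all genes tested. Gclc and Gclm, the subunits that make glutathione, and Nfe2l2, which encodes NRF2, were among the 12 with smaller differences, of 0.45, 0.23 and 0.40. Without each LIDPAD library in turn 7 to 12 members were higher.

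**Figure D3:**
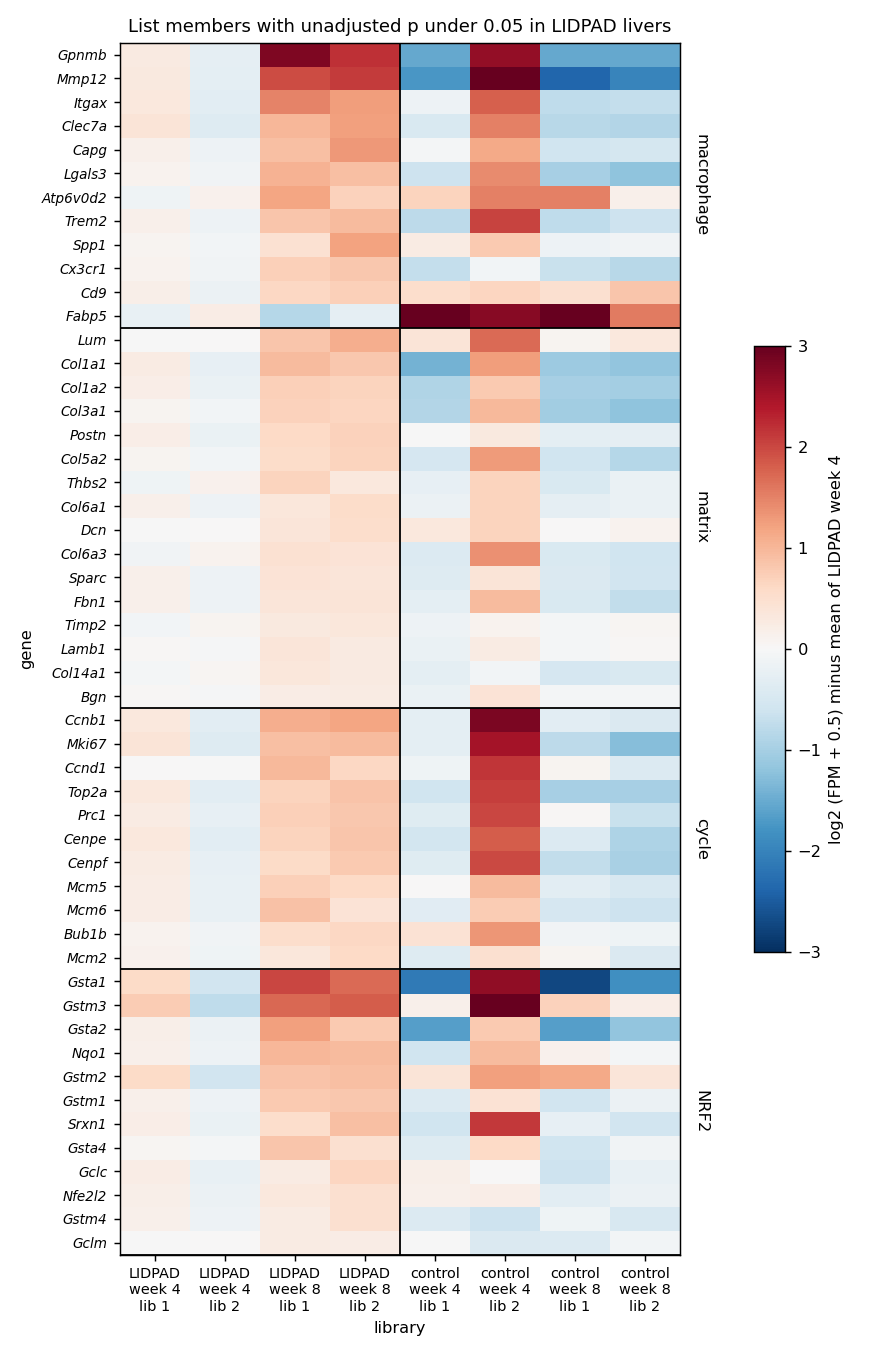
Heat map of list members with an unadjusted p under 0.05 in LIDPAD livers (rows) in the 8 libraries (columns), coloured by log2(FPM + 0.5) minus the mean of the LIDPAD week 4 libraries and capped at 3 on either side. The rows were chosen by the LIDPAD comparison, so the LIDPAD columns are a description. In the control columns, library 2 of week 4 is red over most macrophage, matrix and cycle rows, and Fabp5 is higher in every control library than in any LIDPAD library.

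Few members of the lipid handling lists differed. Cd36, the fatty acid translocase (chr5:17781690-17888801), was at 94.3 and 63.5 FPM in week 4 and 151 and 157 FPM in week 8, a 1.95-fold difference of means (log2 0.99 ± 0.17, limma adjusted p = 0.28, DESeq2 adjusted p = 0.00023). Cidec, which fuses lipid droplets, was at 16.8 and 12.0 FPM and then 22.5 and 25.9 FPM (log2 0.74 ± 0.16, DESeq2 adjusted p = 0.04). In the lists to which these belong, 2 of 13 uptake and binding genes were higher and 1, Fabp5, lower at an unadjusted p under 0.05, the second being Acsl3, and 3 of 10 lipid droplet genes were higher, with Hsd17b13 and Cideb beside Cidec. Plin2, the droplet coat protein of steatotic hepatocytes, was at 333 and 258 FPM and then 334 and 405 FPM (log2 0.33 ± 0.15). Osbpl3, an oxysterol-binding protein relative at membrane contact sites (chr6:50293330-50456201), had limma's smallest p. It was at 6.96 and 5.72 FPM and then 18.4 and 17.3 FPM, a 2.81-fold difference of means (log2 1.43 ± 0.13, limma adjusted p = 0.0784, DESeq2 adjusted p = 1.5e-11). It was in none of the lists and was named after its values were seen.

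Fatty acid synthesis and oxidation lists had few members past an unadjusted p under 0.05, and for synthesis that count depended on the setting. Of 18 fatty acid synthesis genes 15 had a positive difference and 1 was higher (Acly, ATP citrate lyase) and 1 lower at an unadjusted p under 0.05, with a median of 0.16. Without LIDPAD week 4 library 1, 8 were higher and 2 lower with a median of 0.29, at the deposited scale 4 were higher and at a total of 1000000 5, and without LIDPAD week 4 library 2 or week 8 library 1 none was higher. The lower gene was Mlxipl, the carbohydrate-sensing factor ChREBP (chr5:135089890-135138382), at 145 and 138 FPM and then 101 and 97.4 FPM (log2 −0.51 ± 0.08, limma adjusted p = 0.28, DESeq2 adjusted p = 0.0011). Fasn, the fatty acid synthase, was at 759 and 651 FPM and then 897 and 801 FPM (log2 0.27 ± 0.12). Of 29 oxidation genes 2 were higher and 1 lower, with a median of 0.00: Pdk4, which holds pyruvate back from oxidation (5.68 and 3.60 FPM, then 8.05 and 12.3 FPM, DESeq2 adjusted p = 0.034), Vnn1, and Cyp4a31 in the other direction. Cyp4a14, a target of the fatty acid sensor PPARα, was at 202 and 201 FPM and then 308 and 160 FPM, so that its week 8 libraries lay on either side of week 4. Of 14 triglyceride and lipoprotein genes Gpam and Tm6sf2 were higher and the lipase Pnpla2 lower. The control median of the synthesis list was 0.39, and 0.12 without control week 4 library 2.

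Cholesterol synthesis genes sat slightly higher at week 8. Of 20 tested 5 were higher at an unadjusted p under 0.05 and none lower, with a median of 0.25: Msmo1 (15.0 and 13.2 FPM, then 20.0 and 18.2 FPM), Idi1, Cyp51, Hmgcs1 and Mvk. The adjusted p of Msmo1, the smallest of the list, was 0.34 in limma and 0.35 in DESeq2. The count was 9 without LIDPAD week 4 library 1, and 1 without LIDPAD week 4 library 2 or week 8 library 2. The control livers had a similar median for this list, 0.21 with 18 of 20 positive, but −0.16 without control week 4 library 2. Sqle, the squalene epoxidase, was at 3.65 and 2.89 FPM and then 3.52 and 4.54 FPM with LIDPAD, with the weeks overlapping, against 22.3 to 104 FPM in the 4 control libraries. Of 13 genes of sterol regulation and uptake Insig1, Mylip and the cholesterol exporter Abcg1 were higher and Scap and Abcg8 lower. Among 16 bile acid genes Cyp7b1, the oxysterol hydroxylase of the alternative pathway, was lower, at 106 and 126 FPM and then 52.1 and 79.8 FPM (log2 −0.84 ± 0.19, DESeq2 adjusted p = 0.0073), as was the importer Slc10a1, while the phospholipid exporter Abcb4 was higher. Cyp7a1, which sets the pace of the classical bile acid pathway, was at 105 and 75.8 FPM and then 118 and 73.4 FPM, with a difference of 0.06 ± 0.24.

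Genes patterned by growth hormone and sex hormones were more often lower. Of 18 tested 7 were lower and 1 higher at an unadjusted p under 0.05, and the median was −0.27. Both week 8 libraries were below both week 4 libraries in 10, against 19.5% of all genes tested. Without LIDPAD week 8 library 2, 11 were lower. In the controls the median of the list was 0.01, with 1 lower, and without control week 4 library 2 it was −0.36, with 4 lower and 1 higher. Moxd1, a monooxygenase-like gene of male mouse liver, was at 1.96 and 3.94 FPM in week 4, from 82 and 132 reads, and at 0 and 0.0852 FPM in week 8, from 0 and 4 reads (limma adjusted p = 0.18, DESeq2 adjusted p = 0.013). Moxd1 passed the filter of 1 FPM only through its week 4 libraries, so it could only come out lower, and it enters the counts and the median above. Igfals, the partner of IGF1 in the circulation, was at 49.2 and 56.9 FPM and then 37.8 and 38.0 FPM (log2 −0.48 ± 0.10, DESeq2 adjusted p = 0.034), and Cyp7b1, given above, is a member too. Susd4, Hsd3b5, Igfbp2 and Cyp4a12b were the others at an unadjusted p under 0.05. The member in the opposite direction was Igfbp3, which binds IGF1, at 13.6 and 14.4 FPM and then 19.0 and 21.2 FPM. In the control livers Cyp7b1 ran from 48.2 to 121 FPM and Hsd3b5 from 88.4 to 214 FPM with no order by week, so both differ between libraries of 1 group. Moxd1 differed in that way too. On a scale common to weeks 1 to 12 it was at 7.20 and 0.302 FPM in control week 4. It was at 0.637 and 1.06 FPM in control week 8, and at 1.81 and 13.1 FPM in control week 12.

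Further genes that DESeq2 called lower were chosen after their values were seen. Egfr, the epidermal growth factor receptor of hepatocytes (chr11:16752203-16918158), was at 493 and 646 FPM in week 4 and 299 and 286 FPM in week 8, a 1.95-fold difference of means (log2 −0.95 ± 0.13, limma adjusted p = 0.27, DESeq2 adjusted p = 1.6e-07). Adgrf1, an adhesion receptor and one of the index genes followed in this series, was at 3.24 and 4.46 FPM and then 1.22 and 1.53 FPM (log2 −1.21 ± 0.21, DESeq2 adjusted p = 0.0042), against 10.2 to 18.5 FPM in the control libraries. Gnmt, which uses up methyl donors, was at 350 and 365 FPM and then 276 and 272 FPM (DESeq2 adjusted p = 0.021), and led a list of 18 urea cycle and one-carbon genes of which 3 were lower and 1, Glul, higher. Nrg1 and Ntrk2, a ligand and a receptor of growth factor signalling, were called higher: Nrg1 at 1.84 and 0.772 FPM and then 3.54 and 4.71 FPM (DESeq2 adjusted p = 0.023), and Ntrk2 at 1.58 and 2.17 FPM and then 4.50 and 6.49 FPM (DESeq2 adjusted p = 0.0013). Hsd3b4 and Gm10681, both called lower, carried the same values in every LIDPAD library and share reads, so they count as 1 signal.

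Metabolic, acute phase and stress lists differed in how many members passed an unadjusted p under 0.05. Drug-metabolizing P450 genes had 5 of 18 higher and none lower with a median of 0.16, led by Cyp2b9, at 0.954 and 0.745 FPM and then 22.5 and 3.96 FPM, so that its week 8 libraries differed widely. Cyp2b9 passed the filter of 1 FPM only through week 8, so it could only come out higher. The control median of the P450 list was 0.17, and −0.06 without control week 4 library 2. Without LIDPAD week 8 library 1 that list had 1 higher and 1 lower, with a median of 0.06, and without LIDPAD week 8 library 2 it had 3 higher. Acute phase genes had 5 of 18 higher and a median of −0.10, so the count and the median point in different directions. Without LIDPAD week 4 library 1 the list had 2 higher and 10 lower with a median of −0.39, and without LIDPAD week 4 library 2 it had 9 higher and none lower with a median of 0.28. Orm2, an acute phase glycoprotein, was at 15.8 and 13.8 FPM and then 22.5 and 23.6 FPM (DESeq2 adjusted p = 0.018), and Il1rn and Lcn2 followed. Hepatokines had 4 of 12 higher and 1 lower, with Lect2, Gdf15 and Fgf21 first. Fgf21, a fasting and stress hormone of the liver, was at 5.94 and 3.63 FPM and then 8.00 and 7.62 FPM (log2 0.69 ± 0.21, limma adjusted p = 0.35). The amino acid stress list had 1 of 12 (Atf3). Oxidative phosphorylation (25 tested, median 0.12), ribosomal proteins (20, 0.06), endoplasmic reticulum chaperones (16, −0.13) and the glucose and insulin response (14, −0.01) had none in either direction. Without LIDPAD week 4 library 1 the chaperone list had 9 of 16 lower with a median of −0.32, and the glucose and insulin list 2 higher and 5 lower.

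Markers of other cell types were mostly low or alike between the weeks. Sinusoidal endothelial markers had none of 13 past an unadjusted p under 0.05 (3 higher without LIDPAD week 4 library 1) and a summed level of 377 to 417 FPM in week 4 and 374 to 416 FPM in week 8. Hepatocyte markers had 4 of 14 lower, Tat, Hnf4a and Hpd among them, none higher, and a median of −0.03. The count lower was 0 without LIDPAD week 8 library 1, and 1 without LIDPAD week 4 library 2, without LIDPAD week 8 library 2 or at a total of 1000000. Among 15 T and NK cell markers 13 were under 1 FPM in the 4 LIDPAD libraries and only Themis was tested. Themis was at 4.89 and 2.77 FPM and then 9.87 and 10.1 FPM (log2 1.32 ± 0.23, DESeq2 adjusted p = 0.0011), while Cd3e, which defines T cells, was at 0.0429 to 0.180 FPM. Of 9 B and plasma cell markers 7 were under 1 FPM and neither Igkc nor Ighm had an unadjusted p under 0.05. Dendritic cell markers had 1 of 3 tested higher, Cd83. Erythroid markers had Hbb-bs and Hbb-bt higher of 5 tested, a count of 0 without LIDPAD week 4 library 2 or week 8 library 2 and of 4 without either other library, at a summed level of 335 to 480 FPM in week 4 and 464 to 595 FPM in week 8, and the part of blood in the other differences was not tested. Of 3 adipocyte markers tested Cfd was lower, at 102 and 103 FPM and then 61.4 and 81.9 FPM, and Lep had no reads in the 4 libraries. Of 11 pancreas, muscle and mesothelium markers 3 had no reads in the 4 libraries and 10 were under 1 FPM.

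**Figure D4:**
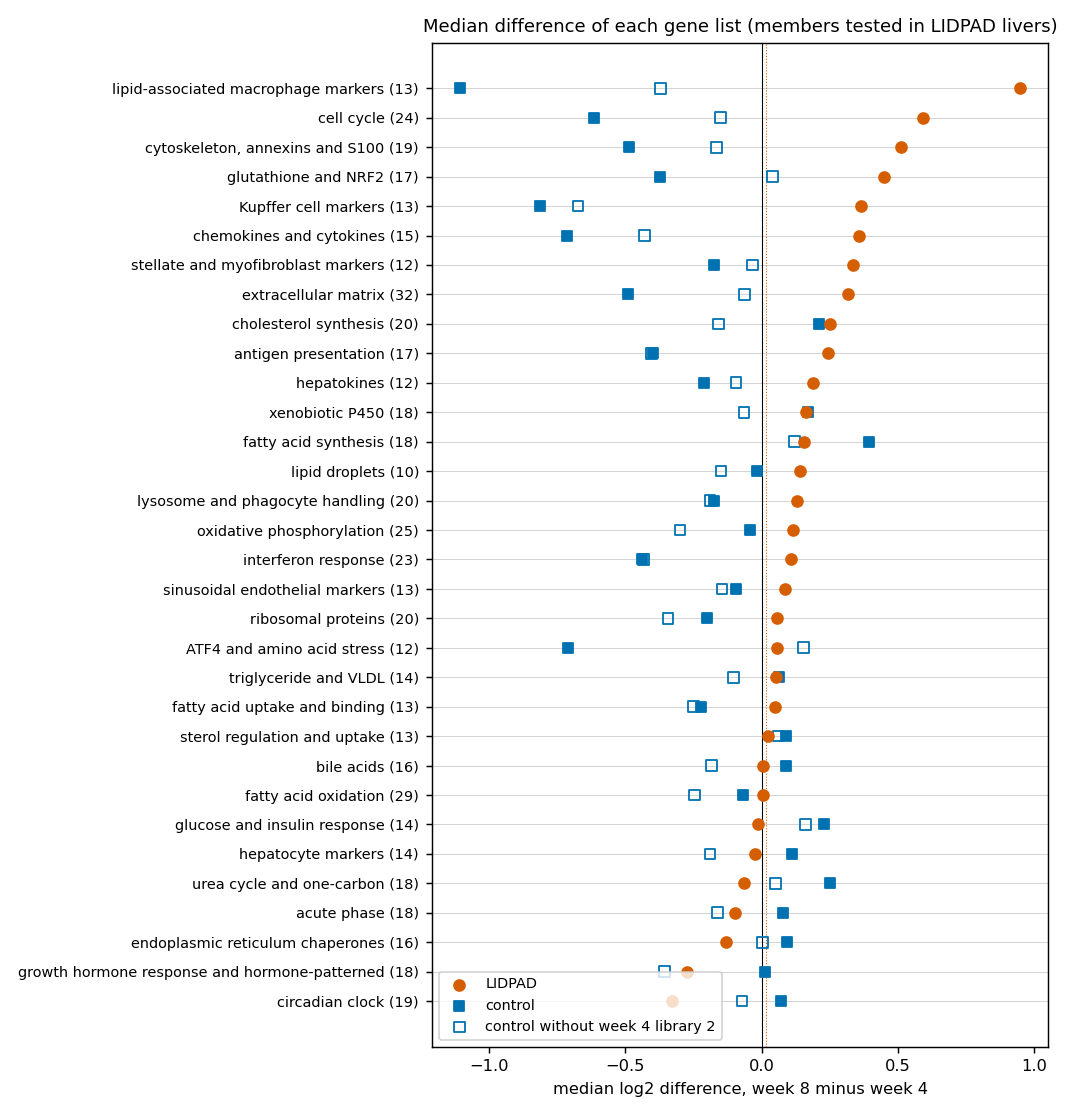
Median log2 difference between week 8 and week 4 (x axis) of each gene list with at least 8 members tested (number in brackets), in LIDPAD livers (orange circles), control livers (filled squares) and control livers without week 4 library 2 (open squares). The dotted line is the median of all genes tested in LIDPAD livers, 0.02. The bracketed numbers are those tested in LIDPAD livers, and fewer could be tested in the controls for some lists. Lipid-associated macrophage markers lie at 0.95 in LIDPAD livers (13 members) and at −1.11 in controls (9), or −0.37 without that library (7).

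The control livers were compared over the same 4 weeks, since the tables of weeks 4 and 8 were scaled apart and a shift of a whole table would move both diets together. limma called 1 of 13213 genes (0.00757%) in the controls, Dmbt1, a scavenger receptor gene that was at 0.225 and 0 FPM and then 19.4 and 34.2 FPM (adjusted p = 0.0039). edgeR called 0 there, with 837 at an unadjusted p under 0.05, and DESeq2 53. At an unadjusted p under 0.05, 3.00% of genes were higher and 3.14% lower. Of 12875 genes tested in both diets, 241 had an unadjusted p under 0.05 in both, which is 15.3% of the LIDPAD genes and 30.7% of the control genes at that level. Of these 241 genes, 12 differed in the same direction in both diets and 229 in opposite directions. The 6 higher in both included Acnat2. This gene, an acyl-CoA amino acid transferase relative, was at 34.7 and 33.9 FPM and then 61.2 and 58.1 FPM with LIDPAD, and at 19.4 and 18.0 FPM and then 43.9 and 37.8 FPM with the control diet. Across all 12875 genes the differences of the 2 diets had a Pearson r of −0.39, a description over genes that share libraries and the scaling of each week. Without control week 4 library 2 the r was −0.27 over 12676 genes, and 199 of 233 genes were in opposite directions.

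The macrophage, matrix and cycle lists had negative medians in the controls, and how much lower depended on control week 4 library 2. These medians cover only members that passed the filter in the controls. For the lipid-associated macrophage markers the median was −1.11 over 9 members, and −0.37 over 7 without that library, against 13 members tested with LIDPAD. Gpnmb and Mmp12 were in neither, being under 1 FPM in the control libraries other than week 4 library 2. For the matrix list the median was −0.49 and −0.06 (32 and 31 members). For the cell cycle list it was −0.61 and −0.15 (15 and 12 members, against 24 with LIDPAD), and for the glutathione list −0.37 and 0.04. Control medians that differed less with that library were those of the Kupffer list, at −0.81 and −0.67, the interferon list, at −0.44 and −0.43, and the antigen presentation list, at −0.40 with and without it. Adgre1 was at 27.2 and 29.9 FPM in control week 4 and at 13.1 and 12.5 FPM in control week 8, and Clec4f at 78.2 and 88.5 FPM and then 55.2 and 47.8 FPM. Thus both control week 4 libraries were above both control week 8 libraries for these 2 genes. Of the 49 genes that DESeq2 called higher with LIDPAD, 44 could be tested in the controls and 39 had a negative control difference, or 24 of 38 without control week 4 library 2. Over all genes tested in the controls, 6585 of 13213 had a positive difference, and 5518 of 12903 without that library, so most genes were then negative too.

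The difference between the 2 diets' changes was tested directly, in a contrast from which a constant factor per table cancels. limma called 0 of 13761 genes (0%), with 1802 at an unadjusted p under 0.05 and a smallest adjusted p of 0.13. Higher in that sense were 7.02% of genes and lower 6.08%. edgeR called 0, with 1897 at an unadjusted p under 0.05, and DESeq2 called 221, with 125 higher (0.908%) and 96 lower (0.698%). The LIDPAD change of Lyz2 exceeded its control change by 2.15 on the log2 scale, or 1.92 without control week 4 library 2 (limma adjusted p = 0.13, DESeq2 adjusted p = 4.2e-09). For Adgre1 the same values were 1.60 and 1.53. Gpnmb was at 4.59, and 2.50 without that library, Mmp12 at 4.96 and 2.47, and Itgax at 2.91 and 1.94. Without that library Gpnmb and Mmp12 were under 1 FPM in every control library of weeks 4 and 8, so no control change could be measured for them. Col1a1 was at 1.93 and 0.60, and Gsta1 at 4.40 and 2.01. Egfr, at −1.66 and −1.68, and Mlxipl, at −0.93 and −0.78, changed little with the library. A fit without control week 4 library 1 rests for that group on library 2 alone, the library that stood apart. Without control week 4 library 1 limma called 603 genes, without control week 4 library 2 it called Dnajb1 alone, without LIDPAD week 4 library 1 Gm38070 alone, and without control week 8 library 2 Lars2 and Gm15564.

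The LIDPAD week 8 libraries differed from each other in the daily clock. Arntl, the clock activator BMAL1, was at 4.56 FPM in library 1 and 12.1 FPM in library 2, and Dbp, a clock output gene that peaks in the opposite phase, at 13.7 and 3.94 FPM. In week 4 Arntl was at 6.93 and 7.09 FPM and Dbp at 9.35 and 12.9 FPM. Log2 Arntl minus log2 Dbp was −0.41 and −0.82 in LIDPAD week 4, −1.49 and 1.51 in LIDPAD week 8, 3.56 and 4.77 in control week 4, and 4.72 and 2.99 in control week 8. The week means with LIDPAD differed by 0.62 with a pooled SD of 1.51, so the weeks were not separated, and an exact permutation test of 2 against 2 libraries cannot go below p = 0.33. Of 19 clock genes 2 were lower at an unadjusted p under 0.05, Cry2 (14.2 and 16.6 FPM, then 12.1 and 10.6 FPM) and Nr1d1 (27.3 and 32.1 FPM, then 25.5 and 17.4 FPM), with a median of −0.33. The list had 7 lower without LIDPAD week 4 library 1, 2 higher and none lower without LIDPAD week 4 library 2, 2 higher and 7 lower without LIDPAD week 8 library 1, and 1 lower without LIDPAD week 8 library 2.  The part of the clock in other differences was not tested.

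**Figure D5:**
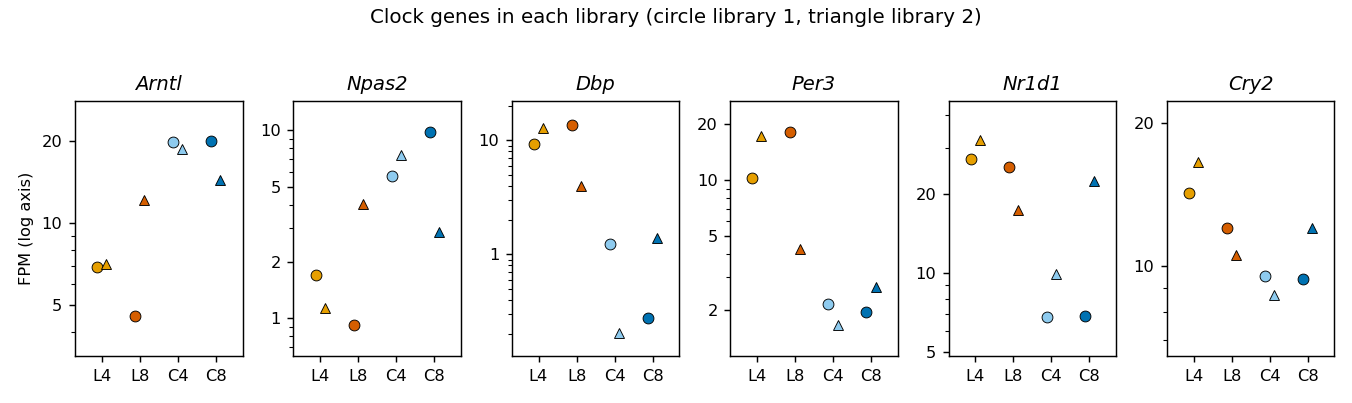
Level of 6 clock genes in each library (y axis, FPM, log axis) for LIDPAD (L) and control (C) at weeks 4 and 8, circles for library 1 and triangles for library 2. The LIDPAD week 8 triangle lies apart from the circle in Arntl, Npas2, Dbp and Per3, and the LIDPAD libraries lie below the controls in Arntl and above them in Dbp.

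The same genes in the neighbouring feeding durations show where the step from week 4 to week 8 falls. On a scale common to the 16 libraries of weeks 1 to 12, Osbpl3 in LIDPAD livers was at 2.41 and 4.42 FPM at week 1, 6.70 and 5.51 at week 4, 17.7 and 16.6 at week 8 and 34.2 and 37.5 at week 12, with no overlap between weeks 4, 8 and 12. Cd36 was at 47.0 and 51.0 FPM at week 1, 90.9 and 61.2 at week 4, 146 and 152 at week 8 and 178 and 191 at week 12. Adgrf1 ran the other way, from 9.63 and 6.44 FPM at week 1 through 3.13 and 4.31, and 1.18 and 1.47, to 0.265 and 0.393 at week 12. Gpnmb had no such order at the start. It was at 0.253 and 9.98 FPM at week 1, so that LIDPAD week 1 library 2 stood near the week 8 level of 11.9 and 7.71, above both week 4 libraries, and it reached 12.4 and 23.8 at week 12. Mmp12 and Col1a1 were likewise higher in LIDPAD week 1 library 2, at 12.9 and 27.4 FPM, than in either week 4 library. So were Lyz2, at 57.7 FPM, Col3a1, at 114 FPM against 84.0 and 81.8 at week 8, and Mki67, at 15.1 FPM against 8.99 and 9.31 at week 8. Gsta1 was higher there too, at 15.64 FPM against 11.85 and 5.06 at week 4, but below its 32.79 and 26.35 at week 8. Egfr was at 784 and 791 FPM at week 1, 475 and 623 at week 4, 288 and 275 at week 8 and 316 and 281 at week 12, so its level at week 12 was no lower than at week 8. Acnat2 was highest at week 8, at 59.0 and 56.0 FPM, and at 41.9 and 46.0 FPM at week 12. Weeks 1 and 12 were not part of the main tests, and these levels are given as values.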

How the data were processed

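Liver RNA was extracted with TRIzol and columns, and a sequencing company made the libraries, per the labels' protocols. The deposited signal is in FPM: in each table, 1 for each feeding duration with 54532 genes (54409 with a symbol), the authors had scaled every column's gene counts by its own size factor to 1000000. Per the submitters' processing notes, the tools were HISAT2, featureCounts and DESeq2 and the build GRCm38, with settings not given in the sources used here. Strand use in counting is not given in the sources used here. 100% of the values were whole reads within 0.02 reads.

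From these values, columns were averaged in blocks of 4, and library values were put on 1 scale by median-of-ratios factors over the 8 libraries. limma 3.58.1 (R 4.3.3) (two-sided, with a trend of variance on level) was fitted on log2(FPM + 0.5) for genes with at least 1 FPM in 2 libraries, with Benjamini-Hochberg adjustment. As alternatives, the pseudocount was 0.1 or 1, the filter was dropped or set to 5 FPM, and there were 4 other scalings, no trend, joint fits of 8 and 16 libraries, a replicate block, each library left out, and edgeR 4.0.16 and DESeq2 1.42.0 on recovered whole reads summed per library. 41 gene lists (705 entries) were described by counts and medians. Named genes are the 12 largest called rises and falls (limma called none), for every list its 3 lowest p-values, the index genes, and others said to be chosen after their values were seen. Comparisons, members and lists were chosen with earlier results of these data known. Counts simulated for this comparison with 200 changed genes among 12927 gave back 76% of those changed 2-fold and 99% of those changed 4-fold, with 13 false calls of 188. The simulated spread came from a model of the counts. In the real libraries the same test called 0 of 13219 genes, not even Gpnmb at a log2 difference of 2.50. The simulated shares therefore do not show what the test could find in these data. Promoters came from RefSeq (GRCm38.p6), gene positions from GENCODE (GRCm38). Python 3.11.15 with pandas 2.3.3, numpy 2.4.6 and matplotlib 3.10.9 served for tables and plots.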

Additional observations from a re-analysis of the deposited data

How the results depend on the processing

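The LIDPAD comparison had 0 calls in limma under both other pseudocounts, no filter, the filter of 5 FPM, the deposited, TMM and quantile scales, no trend, both joint fits and the replicate block (0), and 0 in edgeR. It had 3 calls with each library scaled to 1000000 (Osbpl3, Lyz2 and Mmp12) and 77 in DESeq2, and 0 to 243 when a library was left out, 243 of them without LIDPAD week 4 library 1. The control comparison went from 1 call to 2 at a total of 1000000, 0 in the joint fit of 8 libraries, 14 in that of 16, 47 with the replicate block, 0 in edgeR, 53 in DESeq2 and 3 to 111 when a library was left out (111 without control week 8 library 1, 97 without control week 8 library 2, 40 without control week 4 library 1). The difference between the diets went from 0 to 14 in the joint fit of 16 libraries, 221 in DESeq2, 0 with the replicate block and 0 to 603 when a library was left out. The cause of these moves was not tested, beyond the fewer libraries that each such fit uses. Libraries with the same number did not deviate together (r = −0.17 in both diets over 13761 genes), so the block has no support as a pairing, and with the numbers crossed, an alternative added after seeing the data, the calls were 0 with LIDPAD, 74 in controls and 0 for the difference between the diets. The clock measure, 0.62 between the weeks, was 0.59 to 0.66 with other pseudocounts, 0.98 from Npas2 and Per3, and −0.88 to 2.12 when a library was left out (−0.88 without LIDPAD week 8 library 2). Of 167 named genes 158 kept the sign of their LIDPAD difference in all fits, and 9 of 38 list medians changed sign in some setting. Counts of list members at an unadjusted p under 0.05 that moved by over 1.5 times are given beside most lists in the text. Beyond those, without LIDPAD week 4 library 1 fatty acid oxidation had 6 higher and 2 lower and uptake 4 higher and 3 lower, without LIDPAD week 4 library 2 triglyceride genes had none, sterol regulation 1 lower and urea cycle genes 1 lower, and without LIDPAD week 8 library 2 monocyte and neutrophil markers had 2 higher and interferon genes 1. Depth limits the low genes: Trem2, Ccnb1 and the T cell markers lay near or under the filter of 1 FPM.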
